A study of Mus musculus with 3 samples.

Results

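The genes described here are Fos, Fosb, Fosl1, Fosl2, Jun, Junb, Jund, Atf3, Atf4 and Maff, which encode AP-1 subunits and closely related bZIP transcription factors that cells switch on early after a stimulus. Their peaks were taken from the 3 deposited H3K4me3 peak lists as those that carried 1 of these 10 gene names and had a centre within 2000 bp of the annotated transcription start site (TSS). This gave 22 of 21823 promoter peaks, 7 of 8342 for Ctrl, 8 of 8666 for TGFB1 and 7 of 4815 for TGFB1+miR-9-LOF, and 9 of the 10 genes had a peak in at least 1 list. The lists come from ChIP-seq (antibody ab8580) of H3K4me3, which marks active promoters, in MLg, an established mouse lung fibroblast line with no engineered allele named in the labels. Ctrl cells did not receive TGFB1, TGFB1 cells received human recombinant TGFB1 at 5 ng/ml for 4 h, and TGFB1+miR-9-LOF cells received the same after transfection with an antagomiR at 60 nM against miR-9-5p. TGFB1 was added 20 h after transfection and cells were harvested at 24 h. By the study, the cells not given the miR-9 antagomiR were transfected with a control antagomiR, although the label of each library does not repeat it. Since each group is 1 library, differences could not be checked against replicates and no p-value is given.

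AP-1 is a dimer of bZIP proteins, in which a FOS family member pairs with a JUN family member, or JUN proteins pair with each other, and the dimer binds a short palindromic DNA site. Serum, growth factors, stress and TGFB1 induce many of these genes within minutes to hours through MAP kinases acting on factors that are already present, which is why they are called immediate early genes. In fibroblasts AP-1 contributes to proliferation, matrix remodelling and the response to TGFB1, where it acts beside the SMAD proteins.

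The sequences below are the promoters in which called H3K4me3 coverage differed between the libraries, with Fos as a promoter that was covered in each of them. Each is the window from 250 bases before to 50 bases after a RefSeq TSS on the GRCm38.p6 build, which has the mm10 coordinates of the peaks, printed 5′ to 3′ on the strand of the gene. Capitals mark the motif TATAA, the cAMP response element TGACGTCA, or a G-quadruplex motif, defined as 4 runs of at least 3 G on either strand with loops of 1 to 7 bases. The mature miRNA that the antagomiR targets is given with its seed, bases 2 to 8, in capitals, and RefSeq places it in the loci Mir9-1, Mir9-2 and Mir9-3.
Fosl2 (chr5:32136222-32136521, plus strand): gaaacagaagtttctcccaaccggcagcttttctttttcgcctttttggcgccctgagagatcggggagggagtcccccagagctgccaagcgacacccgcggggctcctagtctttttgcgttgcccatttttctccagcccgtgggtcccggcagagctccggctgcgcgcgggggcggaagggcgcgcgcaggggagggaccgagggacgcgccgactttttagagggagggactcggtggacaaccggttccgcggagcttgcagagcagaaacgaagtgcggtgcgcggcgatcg
Atf3 (chr1:191183284-191183583, minus strand): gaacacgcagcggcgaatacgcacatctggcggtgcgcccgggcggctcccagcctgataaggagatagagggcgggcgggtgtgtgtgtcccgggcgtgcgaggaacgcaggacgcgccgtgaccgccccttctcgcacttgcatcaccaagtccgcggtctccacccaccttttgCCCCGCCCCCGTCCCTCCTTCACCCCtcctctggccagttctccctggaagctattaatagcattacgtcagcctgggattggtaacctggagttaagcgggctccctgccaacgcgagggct
Fosb (chr7:19309996-19310295, minus strand): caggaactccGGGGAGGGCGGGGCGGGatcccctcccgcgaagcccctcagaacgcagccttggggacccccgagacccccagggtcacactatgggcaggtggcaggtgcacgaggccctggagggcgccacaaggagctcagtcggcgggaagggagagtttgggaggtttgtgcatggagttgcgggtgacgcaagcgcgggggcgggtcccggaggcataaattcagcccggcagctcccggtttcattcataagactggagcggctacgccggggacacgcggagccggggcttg
Maff (chr15:79347270-79347569, plus strand): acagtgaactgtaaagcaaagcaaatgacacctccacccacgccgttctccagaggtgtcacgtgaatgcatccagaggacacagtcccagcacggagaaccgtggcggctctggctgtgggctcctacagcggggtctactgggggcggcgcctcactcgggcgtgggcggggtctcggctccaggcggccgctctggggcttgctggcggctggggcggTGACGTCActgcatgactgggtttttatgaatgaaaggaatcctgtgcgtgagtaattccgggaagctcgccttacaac
Fos (chr12:85473640-85473939, plus strand): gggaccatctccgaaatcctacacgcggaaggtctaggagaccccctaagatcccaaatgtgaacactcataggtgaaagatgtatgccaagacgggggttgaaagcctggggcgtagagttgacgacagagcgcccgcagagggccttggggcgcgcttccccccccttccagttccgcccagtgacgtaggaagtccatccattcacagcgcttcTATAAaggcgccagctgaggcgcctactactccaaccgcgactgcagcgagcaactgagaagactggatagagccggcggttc
mmu-miR-9-5p: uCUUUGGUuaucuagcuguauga

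The Fosl2 window had 300 of its 300 bases under a peak in TGFB1 and 0 in Ctrl and in TGFB1+miR-9-LOF. The Atf3 window had 224 bases covered in TGFB1 and 0 in both other libraries. At Fosb the window was covered over 300 bases in Ctrl, 266 under TGFB1 and 0 with TGFB1+miR-9-LOF. The Maff window, which belongs to the middle one of 3 RefSeq start sites of that gene, had 235, 300 and 0 bases covered in the same order, while the Fos window was covered over 300 bases in each library. The windows of Jun, Junb, Jund and Atf4 had 0 covered bases in each library, although the first 3 of these genes had peaks further into the gene. Over all genes with a named promoter peak and a window, 74.3% of windows were fully covered and 7.04% not covered in Ctrl, 79% and 5.22% in TGFB1, and 51.8% and 19% in TGFB1+miR-9-LOF. Fosl1 had no window in the promoter table used here.

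Motifs were sought as letters on both strands of these windows, including those not printed. The AP-1 site TGACTCA occurred in 0 of the windows of these genes, and 5.2% of all 32851 RefSeq promoter windows hold it. With so few windows, a count of 0 is near that share. Variants that differ in any letter from TGACTCA, or from TGACGTCA below, were not counted, so the promoters may hold such sites. The cAMP response element TGACGTCA, which binds CREB and ATF proteins, occurred once, 29 to 22 bases before the Maff start site at position 79347520, and 1.79% of all windows hold it. TATAA lay 33 to 29 bases before the Fos start site and at the RefSeq start of Junb, and 24.9% of all windows hold it. GENCODE places the Junb start at position 84978718, downstream of the RefSeq start at 84978748, so TATAA lies upstream of that start. The G-quadruplex motif occurred in the windows of Atf3, Jun and Fosb, and 18.6% of all windows hold it. The Atf3 copy spanned bases 73 to 48 before the start, on the strand opposite to the gene, and the Fosb copy spanned bases 240 to 224 before its start. The CCAAT box, searched as CCAAT, was in windows of Atf3, Jun, Junb and Atf4 and in 37.4% of all windows. The GC box, searched as GGGCGG, was in windows of Atf3, Jun, Fosl2, Fosb, Fos and Maff and in 35.7% of all windows, and it overlapped the G-quadruplex motif at Atf3 and at Fosb. The CArG box, the site of the serum response factor, was in 0 of these windows and in 1.63% of all windows. The windows reach only 250 bases before the start site, so sites further upstream, at Fos or elsewhere, were not searched. Such matches are descriptions of the letters and were not tested for binding.

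Across the 3 lists Ctrl had 8727 peaks, TGFB1 9116 and TGFB1+miR-9-LOF 4959, with median lengths of 1694, 1747 and 1343 bp. The median deposited peak score, a value of the authors that is not scaled between libraries, was 79, 89 and 46. Peaks of TGFB1+miR-9-LOF were thus fewer, shorter and of lower score over the whole list, the sequencing depth of the libraries was unknown here, and depth or ChIP enrichment cannot be told apart from treatment. Of 15 fibroblast markers, 11, 11 and 8 had a promoter peak in Ctrl, TGFB1 and TGFB1+miR-9-LOF, against 0 of 7 epithelial and 0 of 5 endothelial markers in each library and 1, 1 and 0 of 6 immune markers. The fibroblast markers Col3a1, Thy1, Dcn and Lum had no promoter peak by name in any list.

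The H3K4me3 peaks of Fosb and Fosl2 were longer in TGFB1 than in Ctrl, by 1.42-fold and 1.22-fold, and a peak was called at Atf3 that was absent from the Ctrl list, where over all 8974 genes 12.7% were longer and 8.06% gained. Junb, at 1.198-fold, lay just under the limit for longer. In TGFB1+miR-9-LOF, peaks at Jun and Atf3 were absent and the other 6 of the 8 TGFB1 peaks were shorter, Fosl2 by the most. Across all genes, 42.8% of 8763 were shorter by at least 1.2-fold and 45.3% had lost their peak in the same comparison. Fosb was the only one of these genes whose length in TGFB1+miR-9-LOF exceeded that in Ctrl, by 1.16-fold, which is under the limit. Lengths are the bp under the promoter peak of a gene, and a gene is called longer or shorter at a ratio of at least 1.2-fold, gained where the peak was in the treated library only and lost where it was in the reference library only.

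**Figure D1:**
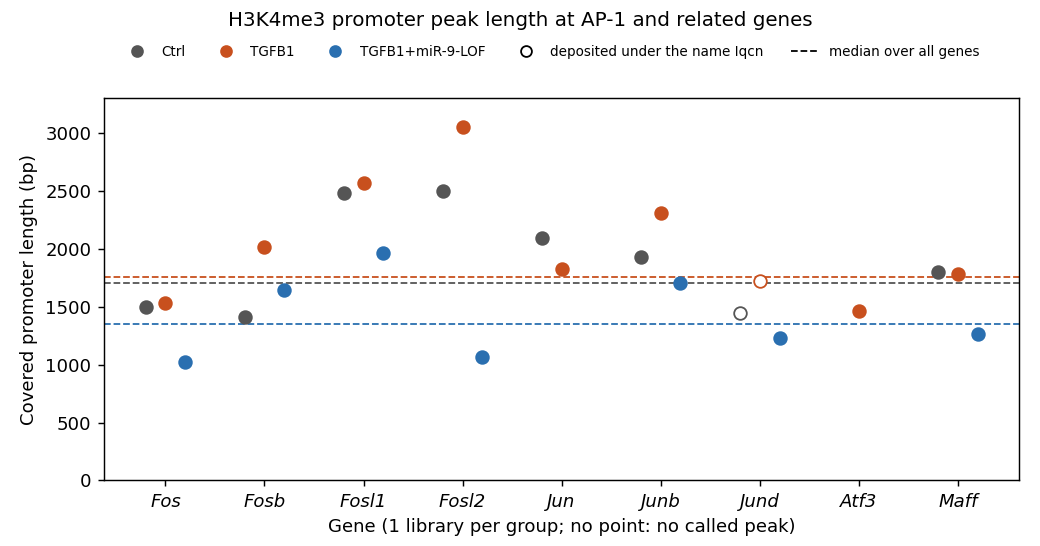
Covered promoter length in bp of each gene in the 3 libraries, 1 point per library, with dashed lines at the median over all genes of each library (1704, 1761 and 1348 bp). Fosb, Fosl2 and Junb lie higher in TGFB1 than in Ctrl, Atf3 has a point in TGFB1 only, and each gene with a point in both TGFB1 and TGFB1+miR-9-LOF is lower in the latter. Open points at Jund are peaks deposited under the name of its neighbour Iqcn.

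Within the FOS family, Fosl1 and Fosl2 had the longest peaks of the set in Ctrl and in TGFB1, while Fosb had the shortest in Ctrl. Fos, the founding member and the classic serum-induced partner of JUN, had a peak of 1496 bp in Ctrl, 1530 bp under TGFB1 and 1027 bp with TGFB1+miR-9-LOF. Its TGFB1 peak (chr12:85473264-85474793) lay across the start site, from 626 bp upstream to 903 bp downstream. Ctrl and TGFB1 were thus nearly equal in length, a log2 ratio of 0.032, and the TGFB1+miR-9-LOF peak was shorter at both ends, by 209 bp upstream and 294 bp downstream. The score of the Fos peak was 54 in Ctrl, 36 under TGFB1 and 44 with TGFB1+miR-9-LOF, at percentiles 19.5, 2.31 and 43.1 of the scores in those lists. Fos was therefore a low-scoring peak within the TGFB1 list and a middling one in TGFB1+miR-9-LOF.

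Fosb, a FOS protein whose full-length form carries a strong activation domain, had 1414 bp covered in Ctrl, 2014 bp under TGFB1 and 1641 bp with TGFB1+miR-9-LOF. TGFB1 over Ctrl was 0.51 on the log2 scale (1.42-fold), at percentile 97.0 of the 7848 genes with a promoter peak in both. Its score was 59, 93 and 53 in the 3 libraries, at percentiles 25.7, 53.7 and 68.4 of the scores in those lists. The added length lay on one side of the peak. In Ctrl the peak ran from 273 bp upstream of the start site to 1140 bp downstream, and in TGFB1 (chr7:19308248-19310261) from 216 bp upstream to 1797 bp downstream, an extension of 657 bp into the gene body. TGFB1+miR-9-LOF kept that downstream edge, at 1807 bp, and began at 167 bp downstream of the start site, so 383 bp were absent at the upstream side. The printed Fosb window lay outside the peak of that library, although the peak still covered a further start site annotated by GENCODE at position 19309600.

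Against Ctrl, the TGFB1+miR-9-LOF peak of Fosb was longer by 0.22 on the log2 scale (1.16-fold), at percentile 99.7 of 4588 genes. Of those genes 3.64% were longer by any amount in TGFB1+miR-9-LOF than in Ctrl. Among 4501 other genes with a peak in the 3 libraries, those whose lengths were most like Fosb, by the summed absolute difference, were Zfp282 (1420, 1957 and 1644 bp, a sum of 66 bp), Pcolce (a sum of 195 bp) and Sh3pxd2b (a sum of 215 bp). Zfp282 encodes a zinc finger protein, Pcolce an enhancer of procollagen processing and Sh3pxd2b an adaptor of invadopodia.

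Fosl1, which encodes FRA1, a FOS protein without the strong activation domain of FOS, carried 2485 bp in Ctrl, 2569 bp under TGFB1 and 1960 bp with TGFB1+miR-9-LOF. These lengths ranked at percentiles 95.4, 95.4 and 95.6 among all genes of each library, so Fosl1 held its place near the top while the lists changed. The TGFB1 peak (chr19:5447576-5450144) ran from 122 bp upstream to 2446 bp downstream of the start site, centred on intron 1. GENCODE places a start further upstream, at position 5447547. The Ctrl peak covered it, while the TGFB1 peak began 29 bp and the TGFB1+miR-9-LOF peak 94 bp from it. The log2 ratio was 0.048 for TGFB1 over Ctrl and -0.39 for TGFB1+miR-9-LOF over TGFB1, and 544 of the 609 bp not covered in the latter lay at the downstream end.

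Fosl2, which encodes FRA2, a FOS protein tied to fibrosis in mice, had the longest domain of these genes in Ctrl and in TGFB1. It measured 2501 bp in Ctrl, 3048 bp under TGFB1 (chr5:32136147-32139194) and 1068 bp with TGFB1+miR-9-LOF. At 3048 bp it was the only one of the set in the broad class of 2700 bp or more, which held 3.06% of genes in TGFB1, 2.46% in Ctrl and 0.334% in TGFB1+miR-9-LOF. TGFB1 over Ctrl was 0.29 on the log2 scale (1.22-fold), just past the limit of 1.2-fold, while Junb, at 1.198-fold, was just short of it. Most of the added length was upstream. The Ctrl peak began 99 bp after the RefSeq start site and the TGFB1 peak 325 bp before it, an extension of 424 bp against 123 bp at the downstream end. No peak reached the start site that GENCODE places further upstream, from which the nearest peak edge was 346 bp away in TGFB1 and 770 bp away in Ctrl.

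In TGFB1+miR-9-LOF the Fosl2 peak ran from 264 to 1331 bp downstream of the start site and had lost 589 bp upstream and 1391 bp downstream relative to TGFB1. The log2 ratio of TGFB1+miR-9-LOF over TGFB1 was -1.51, at percentile 0.402 of the 4602 genes with a peak in both, and against Ctrl it was -1.23, at percentile 1.08. Its rank among the genes of each library went from percentile 95.6 in Ctrl and 98.5 in TGFB1 to 13.3 in TGFB1+miR-9-LOF. The score of the Fosl2 peak was 78, 63 and 28, at percentiles 48.5, 23.8 and 2.4 of those lists. The longer TGFB1 peak thus stood lower in its list than the Ctrl peak, and the remaining peak was near the lowest of its list. Among the Fosl2 peaks, the ratio of observed to expected CpG dinucleotides was 0.369 in Ctrl, 0.476 under TGFB1 and 0.447 with TGFB1+miR-9-LOF, at percentiles 3.6, 10.7 and 7.18 of promoter peaks.

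**Figure D2:**
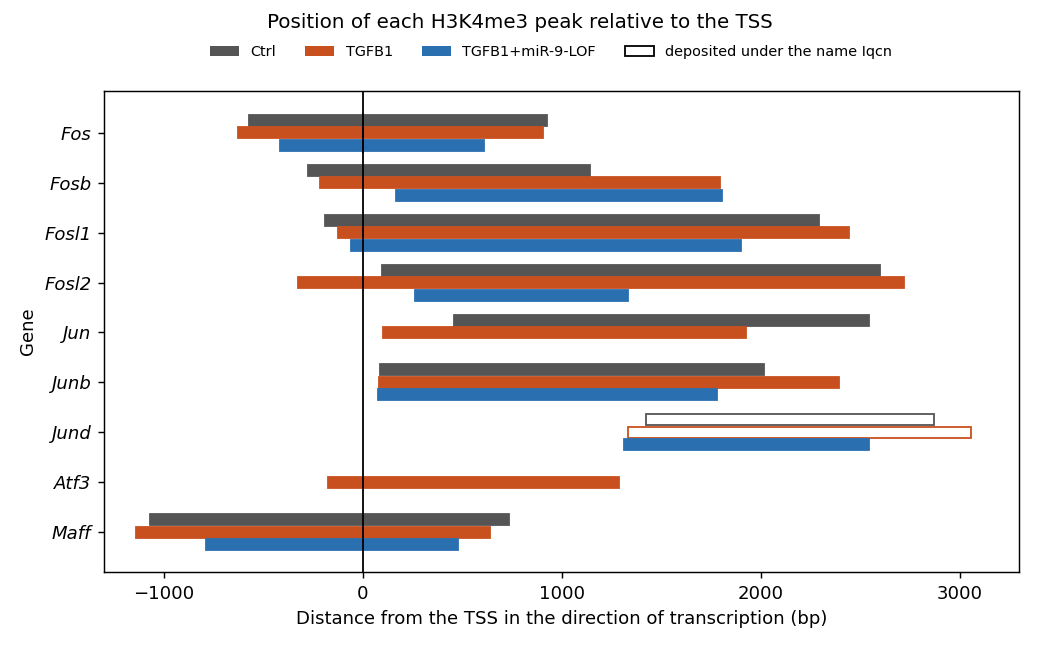
Extent of each H3K4me3 peak in bp from the RefSeq start site (vertical line at 0), in the direction of transcription, with 1 bar per library. The TGFB1 bar of Fosb ends 657 bp further downstream than the Ctrl bar, that of Fosl2 begins 424 bp further upstream, and the bars of Jun, Junb and Jund start downstream of the line. Open bars at Jund are deposited under the name Iqcn.

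The JUN family differed by member. Jun, the main partner of FOS proteins, had a peak of 2090 bp in Ctrl (chr4:95049676-95051765) and 1825 bp under TGFB1 (chr4:95050296-95052120), and no peak in TGFB1+miR-9-LOF. Its log2 ratio of TGFB1 over Ctrl was -0.20, at percentile 8.23 of genes, the lowest of the set. The called peak also lay elsewhere along the gene, which has a single exon. Its upstream edge lay 457 bp downstream of the start site in Ctrl and 102 bp in TGFB1, 355 bp nearer to the start site. Its far end lay at 2546 bp in Ctrl and 1926 bp in TGFB1, a difference of 620 bp. With 1 library per group the spread of such edges is unknown. The nearest TGFB1+miR-9-LOF peak to the Jun start site was 448663 bp away. Scores of the Jun peak were alike, 59 in Ctrl and 56 in TGFB1.

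Junb, a JUN protein with weaker activation that can oppose Jun, was covered over 1928 bp in Ctrl, 2310 bp under TGFB1 (chr8:84976356-84978665) and 1701 bp with TGFB1+miR-9-LOF. Its upstream edge stood almost still, at 89, 83 and 78 bp downstream of the start site, and the differences lay at the downstream end, at 2016, 2392 and 1778 bp. The log2 ratio was 0.26 for TGFB1 over Ctrl and -0.44 for TGFB1+miR-9-LOF over TGFB1. While the TGFB1 peak was longer, its score was lower, at 118 in Ctrl, 87 under TGFB1 and 42 with TGFB1+miR-9-LOF. These scores lay at percentiles 85.2, 47.8 and 37.0 of those lists.

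Jund, the JUN protein that is expressed most steadily in resting cells, carried its own name only in TGFB1+miR-9-LOF, with 1229 bp (chr8:70699053-70700281) at a distance of 1928 bp from the RefSeq start site. This was a gain of the name and not of the mark. At the same place, Ctrl held a peak of 1450 bp (chr8:70699161-70700610) and TGFB1 a peak of 1726 bp (chr8:70699071-70700796), both deposited under the neighbouring gene Iqcn, at deposited distances of -2140 and -2092 bp from the start site of that gene and so beyond the limit of 2000 bp. By position, Jund was thus covered in the 3 libraries, with a log2 ratio of 0.25 (1.19-fold) for TGFB1 over Ctrl and of -0.49 for TGFB1+miR-9-LOF over TGFB1. The scores of these peaks, which are not scaled between libraries, were 84, 115 and 42. GENCODE places the Jund start further downstream, 104 to 212 bp before the edge of these peaks, and an antisense gene, Gm11175, starts within them, which the mark cannot separate from Jund.

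Of the other bZIP factors, Atf3, a stress-induced repressor of the ATF family, had a peak in TGFB1 only, of 1465 bp (chr1:191182043-191183507) and a score of 55, at percentile 15.9 of the list. It ran from 174 bp upstream to 1290 bp downstream of the start site, into intron 1. The nearest peak of Ctrl was 40576 bp from the GENCODE start site of this transcript and that of TGFB1+miR-9-LOF 119280 bp away. A second annotated Atf3 start site lay 5877 bp from the nearest Ctrl peak and 6167 bp from the nearest TGFB1 peak. Called coverage at the Atf3 promoter was therefore seen in a single library and with a low score.

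Atf4, the main transcription factor of the integrated stress response, whose protein level is set largely by translation, had no peak in any list. The peak nearest to its start site was 120734 bp away in Ctrl, 120695 bp under TGFB1 and 120894 bp with TGFB1+miR-9-LOF. Maff, a small MAF protein that lacks an activation domain and pairs with FOS and CNC proteins, had 1802 bp covered in Ctrl, 1780 bp under TGFB1 (chr15:79347263-79349042) and 1266 bp with TGFB1+miR-9-LOF. Ctrl and TGFB1 were nearly equal, at a log2 ratio of -0.018, and both scored 108, against 50 in TGFB1+miR-9-LOF. Within their lists these scores lay at percentiles 78.7, 67.9 and 61.5. The TGFB1+miR-9-LOF peak was shorter by 352 bp upstream and 162 bp downstream, which took it off the start site at position 79347520, while that at position 79348402 remained covered.

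Set against all genes, TGFB1 over Ctrl gave 2 of 8 genes longer, Fosb and Fosl2, where 12.7% of 8974 genes were longer. None of the 8 was shorter (4.31% of genes), 1 was gained, Atf3 (8.06%), and 0 were lost (4.49%). Longer by any amount were 5 of the 7 genes with a peak in both libraries, beside 64.2% of all genes. The median log2 ratio of the 7 was 0.048 beside 0.061 for all genes, with a range from -0.20 to 0.51, so as a group these genes lay where most genes lay, and Fosb stood towards the upper end.

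TGFB1+miR-9-LOF over TGFB1 gave 6 of 9 genes shorter, beside 42.8% of 8763 genes. Lost were 2, Jun and Atf3, beside 45.3%, gained was 1, Jund, by name as described above, beside 2.19%, and longer were 0, beside 0.0571%. Of the 8 genes with a TGFB1 peak, 6 also had a TGFB1+miR-9-LOF peak, where 53.7% of all genes did. All 6 were shorter by some amount, as were 98.4% of the genes with a peak in both, and 0 were longer by any amount, beside 1.59%. The median log2 ratio of those 6 was -0.47 beside -0.48 for all genes. Shortening at these genes was thus of the size seen across the list, apart from Fosl2 at -1.51, and Fos at -0.58 was the next largest decrease.

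TGFB1+miR-9-LOF over Ctrl gave 4 of 8 genes shorter beside 40.1% of 8457 genes, 1 lost, Jun, beside 43.3%, 1 gained, Jund, beside 2.44%, and 0 longer beside 0.118%. By any amount, 5 of the 6 genes with both peaks were shorter, beside 96.3%, and 1, Fosb, was longer, beside 3.64%. The median log2 ratio was -0.43 beside -0.42 for all genes, from -1.23 at Fosl2 to 0.22 at Fosb. These contrasts share libraries and are not independent of one another.

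**Figure D3:**
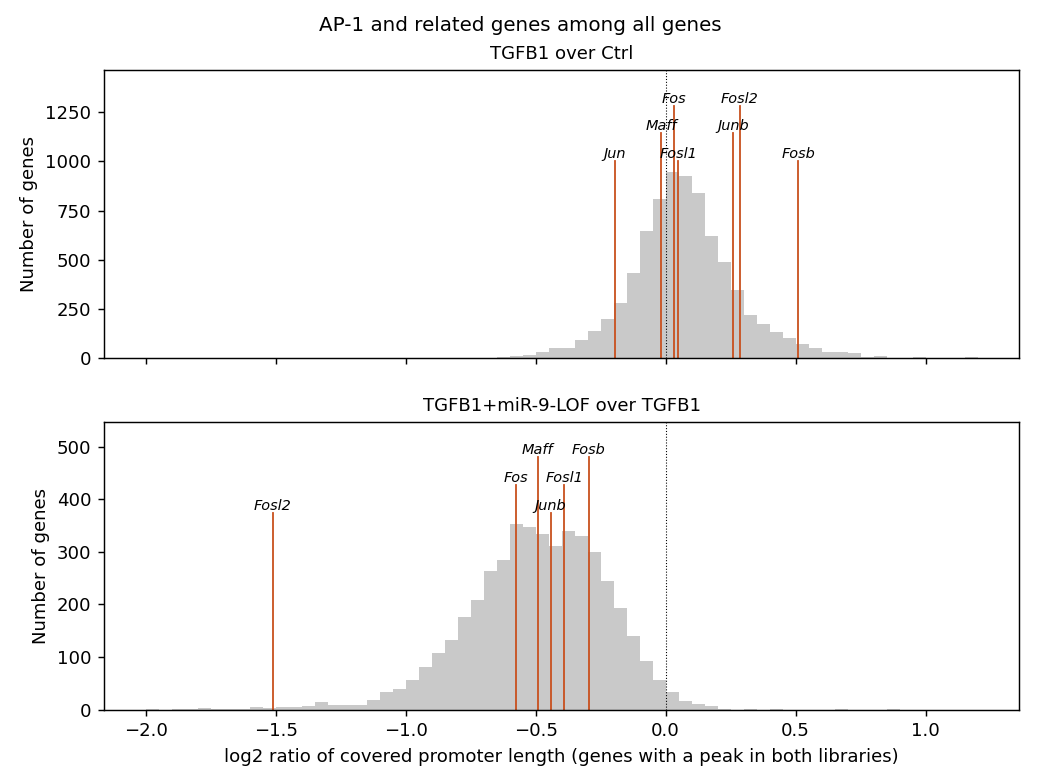
Number of genes by log2 ratio of covered promoter length, for TGFB1 over Ctrl (top) and TGFB1+miR-9-LOF over TGFB1 (bottom), over the 7848 and 4602 genes with a peak in both libraries. Vertical lines mark the named genes, and their heights carry no value. Fosb lies at 0.51 in the top panel and Fosl2 at -1.51 in the bottom panel, with the other genes inside the bulk.

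Whether a TGFB1 promoter peak was also called in TGFB1+miR-9-LOF went with its score. Over all 8666 TGFB1 promoter peaks, 55.5% overlapped a TGFB1+miR-9-LOF peak (95% Wilson interval 54.5 to 56.6, counting error only). In 10 bins of the score, each holding a similar number of peaks, this share was 7.11% for scores of 25 to 49 and 96.9% for 146 to 669. Jun and Atf3, the absent ones, scored 56 and 55, in the bin of 50 to 61 where 17.9% were kept (15.5 to 20.5). The kept peaks of Junb, Fosb, Maff and Fosl1 scored 87, 93, 108 and 112, in bins with shares of 52.7% to 76%. Fosl2, at 63, was kept in a bin with 29.1% (26.2 to 32.3), and Fos, at 36, was kept in the lowest bin with 7.11% (5.6 to 8.99).

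**Figure D4:**
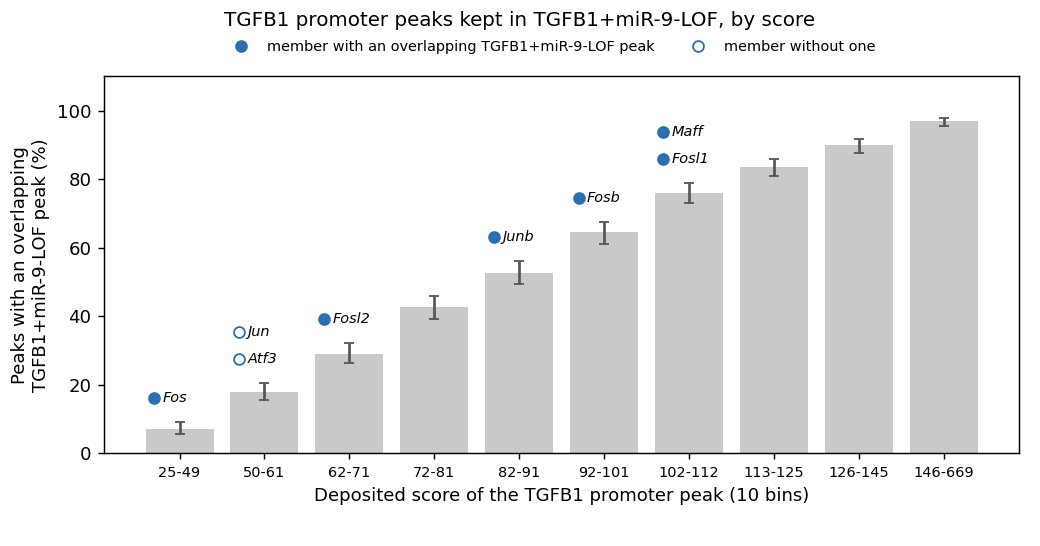
Percent of TGFB1 promoter peaks that overlap a TGFB1+miR-9-LOF peak, in 10 bins of their deposited score, with bars of the 95% Wilson interval. The share is 7.11% in the lowest bin and 96.9% in the highest. Filled circles mark named genes with an overlapping TGFB1+miR-9-LOF peak and open circles (Jun and Atf3) those without. The height of a circle carries no value.

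Many of these peaks lay far into the gene, and others lay at the start site. The centre of a peak lay 900 bp or more downstream of the start site for 4 of 7 in Ctrl, 4 of 8 under TGFB1 and 4 of 7 with TGFB1+miR-9-LOF, where 7.04%, 6.5% and 8.08% of all promoter peaks did. In Ctrl and in TGFB1 these were Fosl1, Fosl2, Jun and Junb, and in TGFB1+miR-9-LOF they were Fosb, Fosl1, Junb and Jund. The 900 bp limit was not among those planned, and the counts depend on the deposited start sites. GENCODE places starts of Fosb (19309600), Junb (84978718) and Jund (70698949) further downstream, nearer to the peak centres. Those of Fosl1 (5447547) and Fosl2 (32135801) it places further upstream. Fos, with centres at 176, 138 and 96 bp, and Maff, at -167, 91 and -155 bp, lay at a start site in each library. The Maff value of 91 bp in TGFB1 was deposited from a different start site than the other Maff values. These Maff distances therefore cannot be compared between libraries. From position 79348402, the Maff peak ran from -1067 to 734 bp in Ctrl and from -1139 to 640 bp in TGFB1, thus further upstream in TGFB1. Median distances of the centre over the genes described here were 1053, 902 and 922 bp, against 383, 381 and 423 bp for all promoter peaks. Jun, Junb and Jund have a single exon and peaks that begin after the RefSeq start site, with centres that the deposited annotation places in that exon where the peak carries the name of the gene. GC content was high at the JUN genes and Maff. The TGFB1 peaks of Jun, Junb and Maff had 63.5%, 63.2% and 62.6%, at percentiles 91.2, 90.6 and 88.8, where the median TGFB1 promoter peak had 55.3%. The TGFB1+miR-9-LOF peak of Jund had 70.9%, at percentile 98.7, where the median promoter peak of that library had 56.5%.

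Around these genes, 5 further gene lists describe the rest of the pathway, each by its own count of genes longer, shorter, gained and lost, counted by deposited name. The shares over all genes to set beside these counts are 12.7% longer, 4.31% shorter, 8.06% gained and 4.49% lost for TGFB1 over Ctrl, with a median log2 ratio of 0.061, and 42.8% shorter and 45.3% lost for TGFB1+miR-9-LOF over TGFB1, with a median of -0.48. With lists this short, a count near these shares is no result about the list. Of 16 other AP-1 bZIP genes, 8 had a promoter peak, and TGFB1 over Ctrl gave 2 longer (beside 12.7% of all genes) and 0 shorter, gained or lost, with a median log2 ratio of -0.0027. Maf, a large MAF protein, had 1230 bp in Ctrl, 2582 bp under TGFB1 and no peak in TGFB1+miR-9-LOF, a log2 ratio of 1.07. Bach1, a repressor that pairs with small MAF proteins, had 1295 bp, 1634 bp and no peak in the same order. Both therefore had their longest domain in TGFB1, as Fos, Fosb, Fosl1, Fosl2 and Junb did, and no called peak in TGFB1+miR-9-LOF. This order is common over all genes. Of genes with both peaks, 64.2% were longer in TGFB1 than in Ctrl and 98.4% were shorter in TGFB1+miR-9-LOF than in TGFB1. In TGFB1+miR-9-LOF over TGFB1, this list had 5 of 8 shorter and 2 lost, beside 42.8% and 45.3%.

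Of 26 other immediate early genes, 22 had a promoter peak under their own name, and 24 with Gadd45a (1853, 2218 and 1447 bp) and Ccn2 (2241, 1961 and 1515 bp), whose start sites lay at peaks deposited under other names. By name, TGFB1 over Ctrl gave 4 of 22 longer (beside 12.7%) and 0 shorter, gained or lost, with a median of 0.15. The 4 were Btg2, an antiproliferative gene (1514 bp in Ctrl and 1988 bp under TGFB1), Csrnp1, a nuclear protein induced by AXIN1 (1902 and 2485 bp), Ier2, an early response gene (1720 and 2166 bp), and Klf4, a zinc finger factor (1510 and 1863 bp). In TGFB1+miR-9-LOF over TGFB1, 11 of the 22 were shorter and 10 lost, beside 42.8% and 45.3% of all genes, with a median of -0.78 over the 12 with both peaks, beside -0.48. Btg2 had 1048 bp in TGFB1+miR-9-LOF, and Csrnp1, Ier2 and Klf4 had no peak there.

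Of 17 kinases and factors upstream of AP-1, 17 had a promoter peak, and TGFB1 over Ctrl gave 2 longer (beside 12.7%), 1 shorter (4.31%) and 1 lost (4.49%), with a median of 0.0087. Longer were Mapk8, which encodes the JUN kinase JNK1 (1239 bp in Ctrl and 1522 bp under TGFB1), and Srf, the serum response factor that drives Fos (2032 and 2471 bp). Map3k1, a kinase upstream of JNK, was shorter, at 1814 and 1310 bp, and Elk1, a partner of SRF, had 1341 bp in Ctrl only. In TGFB1+miR-9-LOF over TGFB1, 9 of 16 were shorter and 5 lost, beside 42.8% and 45.3%, Mapk8 and Map3k1 among the lost.

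Of 17 genes of the integrated stress response, in which Atf4 acts, 15 had a promoter peak under their own name, and 16 with Eif2ak1 (1785, 1835 and 1605 bp), whose start site lay at a peak deposited under another name. By name, TGFB1 over Ctrl gave 2 of 15 longer (beside 12.7%) and 1 shorter (beside 4.31%), with a median of 0.12. Chac1, an enzyme that degrades glutathione and a target of ATF4, had 1107 bp in Ctrl, 1689 bp under TGFB1 and 1000 bp with TGFB1+miR-9-LOF. Atf5, a related bZIP factor, had 1697 and 2581 bp and no peak in TGFB1+miR-9-LOF, and Trib3, a pseudokinase that restrains the response, had 1410 and 1005 bp and none. Atf4 itself had no peak, as given above. In TGFB1+miR-9-LOF over TGFB1, 10 of 15 were shorter and 5 lost, beside 42.8% and 45.3%.

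Of 18 AP-1 target genes, 14 had a promoter peak, and TGFB1 over Ctrl gave 0 longer, 1 shorter (beside 4.31%), 0 gained and 2 lost (beside 4.49%), with a median of 0.037. Ccnd1, cyclin D1, was shorter, at 2632 bp in Ctrl and 2139 bp under TGFB1. The lost ones by name were Ccl2, a monocyte chemokine with 1068 bp in Ctrl, and Vegfa, which by the position of its start site had 3398 bp in Ctrl and 3517 bp under TGFB1, so that its loss was one of name. In TGFB1+miR-9-LOF over TGFB1, 6 of 12 target genes were shorter and 5 lost, beside 42.8% and 45.3%.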

How the data were processed

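H3K4me3 peaks of 1 ChIP-seq library per group were analysed. The submitters' processing notes name Trimmomatic, Bowtie2, Picard (1.119), deepTools (3.5.1), MACS3, bedtools, HOMER and mm10. The study gives broad MACS3 calling at a q-value of 0.001 with an extension of 1000 bp, stated for CUT&Tag and in its reporting summary, and the shortest deposited peak was 1000 bp. An input control is not given in the sources used here. The authors deposited, per library, each peak's coordinates, HOMER distance to the nearest TSS, gene name and score. No counts were used, so depth is unknown here and its precision could not be given.

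Length was end minus start plus 1, summed per gene within 2000 bp of the TSS. Ratios were compared with all genes in Python 3.11.15 with pandas 2.3.3. Steps were tested on simulated data. Groups came from the treatment label. The genes and lists were chosen with earlier results of these data known. Named from each of the 5 lists were at most 4 genes, those with the largest log2 ratio of TGFB1 over Ctrl and those gained or lost, and the 3 genes most like Fosb. Alternatives were a score of at least 50, lists of equal size, the widest peak only, 1000 bp in place of 2000 bp, and folds of 1.1 and 1.5. Assignment by GENCODE start sites within 500 bp was added after seeing the data. Sequences are from RefSeq GRCm38.p6, and 9 of the 10 genes matched.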

Additional observations from a re-analysis of the deposited data

How the results depend on the processing

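The alternatives only filter or reassign the same deposited peaks, so the length of a peak that remains could not differ between them. No result reversed, which under such settings is no sign of robustness, and calls did change, as at Fosl2. Of 99 summary values 38 were labelled moved, each through which peaks or folds were counted. The other 61 were not, although some of these counts changed too. TGFB1+miR-9-LOF over TGFB1 had 4 in place of 6 shorter with lists of equal size (49.5% of all genes). It had 3 in place of 2 lost by annotated start sites (43.5%). TGFB1+miR-9-LOF over Ctrl had 3 in place of 4 shorter in those settings (44.8% and 43%) and 5 at 1.1-fold (47.7%). TGFB1 over Ctrl had 3 in place of 2 longer at 1.1-fold (28.5%). With a score of 50 or more, TGFB1 over Ctrl had 1 lost and a median of 0.15, TGFB1+miR-9-LOF over TGFB1 had 3 shorter, 0 gained, 4 lost and a median of -0.39, and TGFB1+miR-9-LOF over Ctrl had 2 shorter, 0 gained, 4 lost and a median of -0.34. Over all genes this setting gave 6.19% lost for the first contrast, 18.4% shorter, 1.01% gained and 75.3% lost for the next, and 17.8%, 1.14% and 73.2% for the last. With lists of equal size, which kept scores of at least 74 in Ctrl and 85 in TGFB1, TGFB1 over Ctrl had 0 longer and 1 lost (Fosb then counts as gained, Fosl2 as lost), TGFB1+miR-9-LOF over TGFB1 had 3 gained, 0 lost and a median of -0.42, and TGFB1+miR-9-LOF over Ctrl had 3 gained and 0 lost, beside 4.56% longer, 16.5% gained and 16.6% lost, 18.9% gained and 19.5% lost, and 19% gained and 19.8% lost over all genes. Those gained were Fos, Fosl2 and Jund over TGFB1 and Fos, Fosb and Jund over Ctrl. At Fos, Fosb and Fosl2 the reference library had a peak that this setting dropped. Within 1000 bp of the TSS, TGFB1 over Ctrl had 1 longer and a median of 0.032, TGFB1+miR-9-LOF over TGFB1 had 3 shorter, 3 gained, 1 lost and a median of -0.49, and TGFB1+miR-9-LOF over Ctrl had 2 shorter, 3 gained, 0 lost and a median of -0.51, beside 12.2% longer, then 40.6%, 3.37% and 46.5%, and 38.1%, 3.56% and 44.4% over all genes. Gained within 1000 bp were Fosl1, Fosl2 and Junb in both TGFB1+miR-9-LOF contrasts. Their TGFB1 centres lay at 1162, 1198 and 1238 bp and their Ctrl centres at 1053, 1349 and 1053 bp. These were shorter peaks whose centre came inside the limit, and not new peaks. By annotated start sites within 500 bp, chosen after seeing the data, TGFB1 over Ctrl had 1 longer and 2 gained (Atf3 and Fosl2), and both TGFB1+miR-9-LOF contrasts had 0 gained, with medians of -0.47 over TGFB1 and -0.29 over Ctrl, beside 13.6% longer and 5.83% gained, and 0.114% and 0.31% gained, over all genes. At 1.1-fold, 1 gene (Jun) was shorter in TGFB1 over Ctrl and 1 (Fosb) longer in TGFB1+miR-9-LOF over Ctrl, beside 11.3% and 0.508%. At 1.5-fold, 0 were longer in TGFB1 over Ctrl, and 1 (Fosl2) was shorter in each TGFB1+miR-9-LOF contrast, beside 1.63% longer, 18.1% shorter over TGFB1 and 14.7% shorter over Ctrl among all genes.

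Limits are 1 library per group, unknown depth, a shortest peak of 1000 bp below which a domain drops out of the list, and gene names set by the nearest start site. No paired analysis was possible because each group had 1 library, and leaving out a replicate was not possible for the same reason.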

Other observations

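A second peak carried the name Fos outside the promoter limit, in an intergenic region 12694 bp downstream of the start site in Ctrl (chr12:85485895-85487274, 1380 bp, score 56) and 12809 bp downstream in TGFB1 (chr12:85485953-85487446, 1494 bp, score 66). TGFB1+miR-9-LOF had no such peak. In Ctrl the distal peak scored 56 and the promoter peak 54, and in TGFB1 it scored 66 against 36 for the promoter peak. Whether the region acts on Fos was not tested.

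Nfe2l1, a CNC factor that pairs with small MAF proteins, had 1756 bp in Ctrl, 1853 bp under TGFB1 and 1946 bp with TGFB1+miR-9-LOF, where 1.59% of the 4602 genes with both peaks were longer by any amount in TGFB1+miR-9-LOF than in TGFB1. It was singled out after its values were seen. Its relative Nfe2l2, the factor of the oxidative stress response, had 2382, 2278 and 1288 bp.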
